A study of Bos taurus with 2 samples.

Results

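Myoglobin and 8 enzymes of muscle energy metabolism were followed in cultured bovine satellite cells, the muscle stem cells and their progeny that grow out of dissociated muscle. The 9 genes were chosen by name as MB, CKM, CKB, CKMT2, ENO3, PGAM2, PYGM, AMPD1 and PFKM, and each was found once among the 21867 genes of the feature list. The cells came from the longissimus muscle of 1 Holstein bull calf aged 2 weeks and were grown for 1 week in DMEM with fetal bovine serum. Both single-cell libraries, called replicates 1 and 2, were prepared from these cells, and no cells received another treatment. The spread between them is therefore technical, and differences between calves were not measured. The libraries held 9939 and 9157 cells with 145631299 and 137818568 unique molecular identifiers (UMIs, each a tag of 1 captured RNA molecule), and 27 cell barcodes occurred in both.

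Muscle fibres buffer ATP with phosphocreatine. Cytosolic creatine kinase, a dimer of muscle (CKM) or brain (CKB) subunits, moves phosphate between creatine phosphate and ADP, while CKMT2 does so at the inner membrane of muscle mitochondria. Glycogen phosphorylase (PYGM) releases sugar phosphate from glycogen, phosphofructokinase (PFKM), phosphoglycerate mutase (PGAM2) and enolase (ENO3) carry it through glycolysis, AMP deaminase (AMPD1) removes AMP during hard work, and myoglobin (MB) binds oxygen. Most of these genes have partners of the same function in other tissues, and developing muscle is known to replace the brain or ubiquitous form with the muscle form.

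The authors divided the cells into 15 clusters, and the cluster of every cell was recovered exactly from their deposited cluster averages. The clusters used most here follow 1 of the 2 paths that the study inferred from the counts and proposed for the muscle lineage. Its other path also began at cluster 8 and is not followed here. MYOG, the transcription factor that drives muscle differentiation, had a level of 0.107 ± 0.0114 UMIs per 10000 UMIs (SD, n = 2 libraries) in cluster 8 (1241 cells). Cluster 1 (2493 cells) had 0.877 ± 0.103, cluster 3 (2034 cells) had 6.68 ± 0.107 and cluster 12 (627 cells) had 18.6 ± 0.779. MYH3, the embryonic myosin heavy chain, had levels of 0.0643, 0.349, 1.27 and 15.5 in the same order. The myoblast marker MYOD1 had 0.892, 5.18, 6.35 and 3.96, and MYF5, another, had 1.57, 1.55, 0.873 and 0.574. The study called both clusters 7 and 9 fibro-adipogenic progenitors. Cluster 9 (1080 cells) served here as the non-muscle reference, with PDGFRA at 1.58 ± 0.0744 against 0.104 ± 0.0298 in cluster 12. It was not free of muscle transcripts, with MYOG at 0.260 ± 0.0898 and MYH3 at 0.125 ± 0.0267, both above cluster 8. The summed level of 5 fibro-adipogenic markers in cluster 9 was 56.1 ± 0.925. This was above the 30.6 ± 1.64 of cluster 12 but below the 174 ± 4.34 of cluster 8. Cluster 7 had 338 ± 4.47. All 5 markers were detected in each of these clusters. Every level below is in UMIs per 10000 UMIs of the same cells. Each molecule is counted once whatever its length, so a level is a share of captured molecules.

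Abundance differed widely among the 9 genes. CKB had 29463 UMIs in all cells and ENO3 had 21610, followed by PFKM with 3179, MB with 2099, PGAM2 with 1399, CKM with 801 and CKMT2 with 232. PYGM had 23 UMIs in 20 cells and AMPD1 had 31 UMIs in 30 cells, so that their values rest on single molecules. Cluster 12 held 3.28% of the cells and 4.38% of all UMIs. It held 82.6% of the CKM UMIs (95% exact binomial interval 79.8% to 85.2%), 56.0% of CKMT2 (49.4% to 62.5%), 22.7% of PGAM2, 19.8% of ENO3, 15.2% of MB, 5.32% of PFKM and 3.34% of CKB (3.14% to 3.55%). Of the AMPD1 and PYGM UMIs it held 16 of 31 and 8 of 23. The intervals cover counting error only. CKB had its main store elsewhere, with 44.9% of its UMIs in cluster 9.

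**Figure D1:**
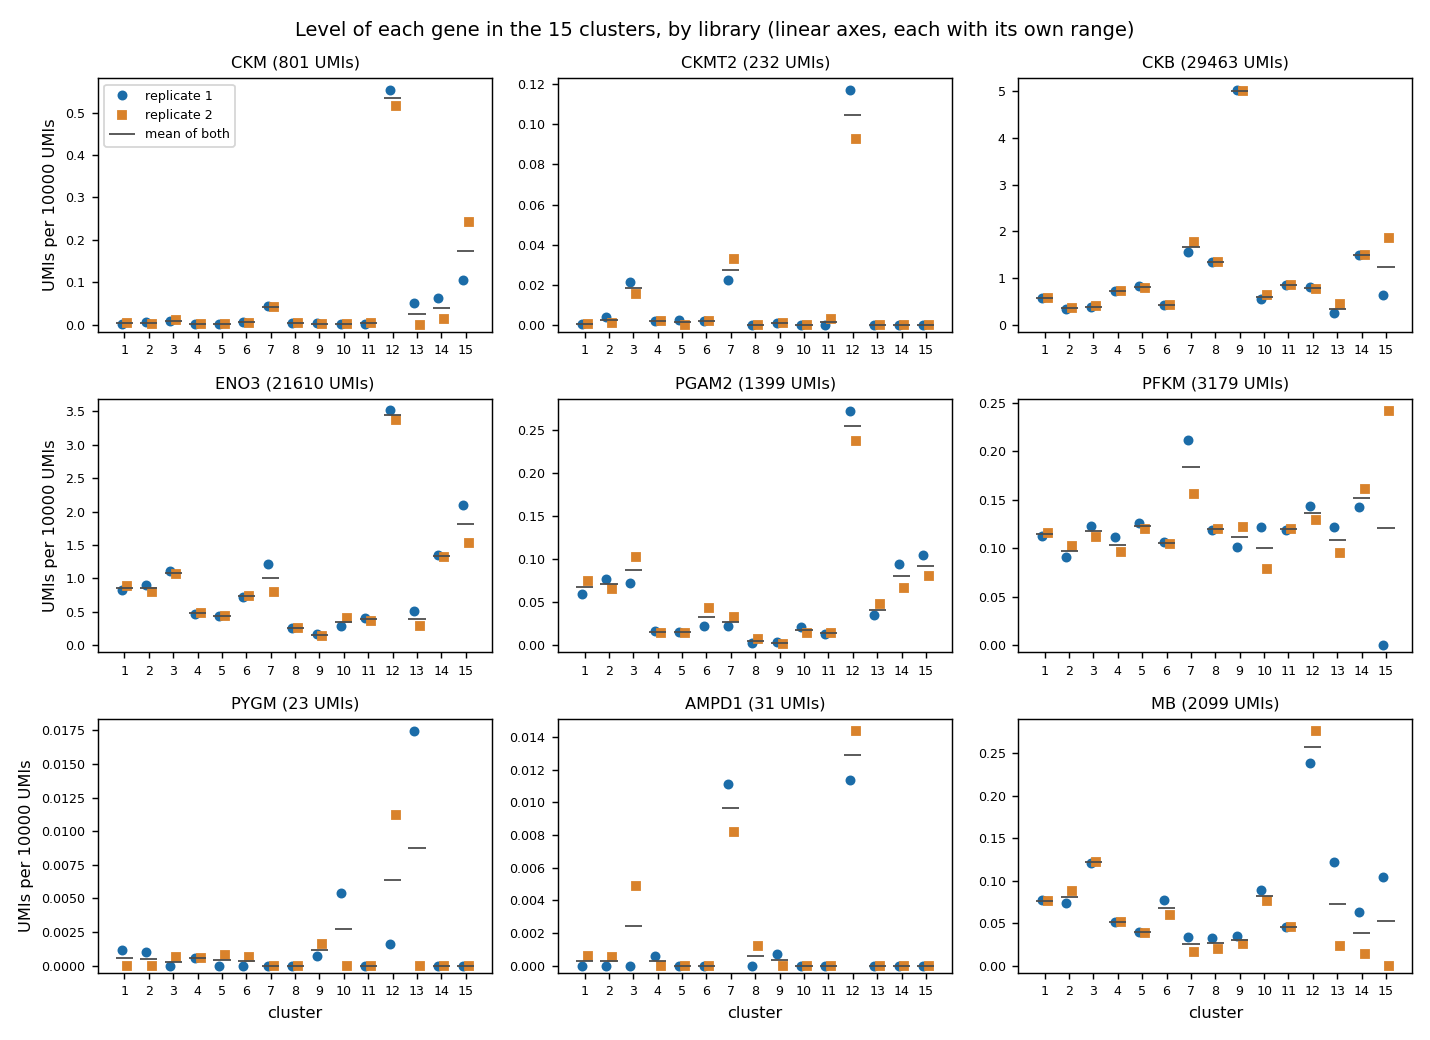
Level of each of the 9 genes (vertical axis, UMIs per 10000 UMIs, with its own linear range) in the 15 clusters (horizontal axis), with a point for each library and a line at their mean. CKM, CKMT2, ENO3, PGAM2 and MB peaked in cluster 12, CKB peaked in cluster 9 at 5.02, and PFKM varied little apart from the shallow clusters 7, 13, 14 and 15.

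Among the creatine kinases, CKM had the narrowest distribution. Its level in cluster 12 was 0.553 in replicate 1 and 0.514 in replicate 2, with a mean of 0.534 ± 0.0271. In cluster 3 the libraries had 0.00951 and 0.0103, and in cluster 1 they had 0.00291 and 0.00421. Next in order was cluster 15, with 0.105 and 0.242 from 1 and 3 UMIs in 317 cells. Its median was 647 UMIs per cell. Cluster 7 followed with 0.0446 and 0.0410 from 9 UMIs, both above cluster 3. Cluster 14 had 0.0634 and 0.0134 from 5 UMIs. These are shallow clusters whose values rest on few molecules, but they also held muscle transcripts. Summed levels of 34 sarcomere genes were 89.7 ± 7.21, 65.5 ± 6.70 and 47.2 ± 2.89 in clusters 15, 7 and 14. Cluster 3 had 97.1 ± 2.56 and cluster 12 had 331 ± 2.74. The part of these transcripts in the CKM levels was not tested. Both libraries of cluster 12 lay above those of every other cluster. In the remaining clusters, cluster 3 excepted, CKM had 0.00636 or less, apart from 3 UMIs in cluster 13.

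CKMT2, the mitochondrial form, also peaked in cluster 12, with 0.117 and 0.0927 in the 2 libraries. It reached 0.0211 and 0.0152 in cluster 3, and the libraries of these clusters did not overlap. Cluster 7 lay between them with 6 UMIs. Clusters 8, 10, 13, 14 and 15 had 0 UMIs, which allows a level of up to 0.00177 in cluster 8 but 0.137 in cluster 15, where few molecules were sequenced.

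CKB, the brain form, followed another order. Cluster 9 had 5.04 and 4.997, followed by cluster 7 with 1.55 and 1.78 and cluster 14 with 1.490 and 1.502. Clusters 8 (1.35 ± 0.00846) and 15 (1.24 ± 0.866) overlapped each other. Cluster 12 stood in the middle of the order with 0.815 and 0.773, and the lowest levels were in clusters 3 (0.391 ± 0.0252), 2 (0.3498 ± 0.0124) and 13 (0.347 ± 0.146). For CKB 9 of the 14 neighbouring pairs in the order did not overlap between libraries, the most of any of the 9 genes, and ENO3 had 8. CKB and ENO3 also had the most UMIs, and such counts were not taken over all genes. In cluster 9 a CKB UMI was found in 93.4% of the cells, against 50.6% in cluster 12 and 35.8% in cluster 3. After each cell was thinned to 1000 UMIs, these shares were 34.0% ± 1.21, 6.91% ± 0.325 and 3.55% ± 0.196 (SD, n = 2 libraries). Smooth muscle and pericyte markers summed to 1.04 in cluster 9, 2.14 in cluster 7 and 1.13 in cluster 8, against 0.228 in cluster 3 and 0.164 in cluster 12. All 5 had a UMI in cluster 9, and in clusters 7, 8, 3 and 12 all but RGS5 did. The sum did not follow CKB in every cluster, with 1.07 in cluster 13, 0.675 in cluster 14 and 0.480 in cluster 15. Single markers also differed in direction. CNN1 had 0.815 in cluster 9 and 0.0765 in cluster 12, but MYH11 had 0.00358 and 0.0153, and MCAM 0.00111 and 0.0113. NOTCH3 gave most of the sum in cluster 7, with 1.69. It had 0.214 in cluster 9, below the 0.484 of cluster 1, where CKB was 0.568. The part of these markers in the order of CKB was not tested.

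Both enzymes of lower glycolysis were also present in the clusters before cluster 12. ENO3, the muscle enolase, had 3.52 and 3.37 in cluster 12, 1.104 and 1.066 in cluster 3, and 0.821 and 0.891 in cluster 1. It fell to 0.256 ± 0.00304 in cluster 8 and 0.151 ± 0.0202 in cluster 9, the lowest of the 15. Next after cluster 12 were the shallow clusters 15 and 14 with 1.82 ± 0.401 and 1.34 ± 0.0140. PGAM2, the muscle phosphoglycerate mutase, had 0.273 and 0.238 in cluster 12, 0.0724 and 0.102 in cluster 3 and 0.0594 and 0.0752 in cluster 1, so that the libraries of clusters 3 and 1 overlapped. Only 8 PGAM2 UMIs were counted in cluster 8 and 7 in cluster 9.

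PFKM, the muscle phosphofructokinase, was almost level across the culture. Its mean ran from 0.0967 in cluster 2 to 0.136 in cluster 12 among the clusters with a median above 5000 UMIs per cell. In its order 1 of the 14 neighbouring pairs did not overlap. Such counts were not taken over all genes, and this one alone does not show a level pattern. Its highest mean, 0.184 ± 0.0396, came from 38 UMIs in cluster 7.

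PYGM and AMPD1 were near the limit of detection. PYGM had 1 UMI in replicate 1 and 7 in replicate 2 in cluster 12, where 3 of the 8 UMIs came from 1 cell, and none of its 14 neighbouring pairs were apart. AMPD1 had 7 and 9 UMIs in cluster 12 and 0 and 8 in cluster 3, with at most 2 UMIs in any other cluster.

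MB, the oxygen-binding protein, had 0.239 and 0.276 in cluster 12, 0.122 in both libraries of cluster 3 and 0.0768 and 0.0764 in cluster 1. These clusters were apart from each other, but from rank 3 to rank 9 each neighbouring pair overlapped. The lowest MB levels with more than 10 UMIs were in clusters 8 (0.0262 ± 0.00935) and 9 (0.0303 ± 0.00691).

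The last step of this inferred path was examined by comparing cluster 12 with cluster 3. UMIs were summed per library and cluster, so that 2 sums stood against 2. They were tested by the quasi-likelihood method of edgeR, and p-values were adjusted after Benjamini and Hochberg over all genes tested, with a threshold of 0.05. Because the authors built the clusters on these same counts, a small p-value sets a difference against the technical spread of the libraries and is no independent evidence of a cell type. Of the 8 members that passed the filter on low counts, 6 were higher in cluster 12 and 0 were lower. AMPD1, with 16 UMIs against 8, passed this filter through cluster 12 alone. Over all 10811 genes tested, 18.2% were higher and 15.6% were lower. CKM differed most, with a log2 fold change of 5.83 (SE 0.13, adjusted p = 2.37e-07). CKMT2 was higher by 2.61 (SE 0.25, adjusted p = 0.000169) and ENO3 by 1.76 (SE 0.058, adjusted p = 7.69e-07). PGAM2 was higher by 1.66 (SE 0.17, adjusted p = 0.000263), MB by 1.18 (SE 0.10, adjusted p = 0.000112) and CKB by 1.12 (SE 0.078, adjusted p = 3.13e-05). The brain form was thus higher in cluster 12 like the muscle form, with 2.17-fold for CKB against 57.0-fold for CKM. Over the cells within cluster 12, CKB did not follow CKM. It had 0.809 ± 0.000909 in cells without a CKM UMI and 0.817 ± 0.268 in cells with 3 or more. Neither PFKM, at 0.31 (SE 0.13, adjusted p = 0.107), nor AMPD1, at 2.54 (SE 0.92, adjusted p = 0.0689), passed the test. When sums of the same library were paired in a block, AMPD1 passed at 2.51 (edgeR adjusted p = 0.000158). PYGM was not tested, and its 8 UMIs against 1 give a ratio of levels of 22.8 with an exact counting interval of 3.06 to 1011. This interval takes each UMI as independent, although 7 of the 8 came from replicate 2 and 3 from 1 cell. It does not replace a test.

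Apart from CKB, genes with the same function in other tissues made a list of 12 partners found in the data. Of these 9 were tested, and 3 were lower and 0 higher in cluster 12 (edgeR), where 15.6% of all genes tested were lower and 18.2% were higher. PGAM1, the ubiquitous phosphoglycerate mutase, was lower by a log2 value of -0.54 (SE 0.058, adjusted p = 0.000286), from 11.3 ± 0.220 in cluster 3 to 7.26 ± 0.341 in cluster 12. PFKP, the platelet phosphofructokinase, was lower by -0.56 (adjusted p = 0.00117) and AMPD2, the widely expressed AMP deaminase, by -0.60 (adjusted p = 0.00239). ENO1, the ubiquitous enolase, had 22.9 ± 0.219 and 22.2 ± 0.414 and a log2 fold change of 0.05 (adjusted p = 0.416). The liver and brain glycogen phosphorylases PYGL and PYGB had log2 fold changes of -0.19 and 0.13, the liver phosphofructokinase PFKL -0.16, the neuronal enolase ENO2 0.01 and cytoglobin CYGB 0.37, none of which passed. CKMT1A, with 1 UMI in cluster 3, AMPD3, with 3 UMIs against 31, and NGB, with 0, were not tested. The median log2 fold change was -0.16 over the 9 partners and -0.02 over all genes tested.

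Among other genes of muscle energy supply, more were called higher than lower in cluster 12. From a list of 49 genes for creatine, purine nucleotide, glycogen, glucose, fatty acid and mitochondrial energy metabolism, 39 were tested, and 18 were higher and 4 lower in cluster 12. Over all genes tested, 18.2% were higher and 15.6% were lower, and the 4 lower genes fell below that share. Highest were COX8B, a muscle subunit of cytochrome c oxidase, with a log2 fold change of 2.17, PFKFB3, which makes the activator of phosphofructokinase, with 1.72, SLC25A4, the muscle ADP/ATP carrier, with 1.49, and GYS1, the muscle glycogen synthase, with 1.43. Lowest were LDHA, the muscle-type lactate dehydrogenase, with -0.53, ADSL of purine synthesis with -0.41, and HK1, a hexokinase, with -0.26. Their adjusted p-values by edgeR ran from 2.14e-06 for SLC25A4 to 0.0173 for HK1. The fibro-adipogenic marker sum was 43.8 ± 1.09 in cluster 3 and 30.6 ± 1.64 in cluster 12. All 5 markers were detected in both. Most of the sum came from the collagens COL1A1, with 16.4 and 11.7, and COL3A1, with 22.5 and 15.7. The markers DCN and LUM were also lower in cluster 12. PDGFRA was not, with 0.0919 ± 0.00680 and 0.104 ± 0.0298 and overlapping libraries. The part of the sum in these differences was not tested.

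The step before was examined by comparing cluster 3 with cluster 1, over which MYOG went from 0.877 to 6.68. Of the 7 members tested, 4 were higher and 1 was lower in cluster 3, where 21.1% of the 11362 genes tested were higher and 19.1% were lower. CKM and CKMT2 passed the filter on low counts through cluster 3 alone and could not have been called lower in it. CKMT2 had 65 UMIs in cluster 3 and 2 in cluster 1, a ratio of levels of 31.1 with a counting interval of 8.26 to 262 (edgeR adjusted p = 0.000552). CKM had 35 against 12 UMIs and a log2 fold change of 1.498 (edgeR adjusted p = 0.0226), a call that DESeq2 did not make (1.52, adjusted p = 0.236). MB was higher by 0.70 (adjusted p = 0.00192) and ENO3 by 0.38 (adjusted p = 0.00224) in the edgeR fit. CKB was lower in cluster 3, at 0.391 against 0.568 ± 0.00590, with a log2 fold change of -0.50 (edgeR adjusted p = 0.000735). PGAM2 was at 0.41 (adjusted p = 0.142), which passed only with the library as a block (0.41, edgeR adjusted p = 0.00579), and PFKM had 0.08 (adjusted p = 0.601). Of 10 isoform partners tested, AMPD2, PGAM1 and ENO1 were higher in cluster 3 by 0.36, 0.22 and 0.14, and 0 were lower. Of 39 genes of the energy list 15 were higher and 4 lower, with COX8B (1.12), the fatty acid carrier FABP3 (1.00), GYS1 (0.85) and SLC25A4 (0.71) highest, and the mitochondrial regulator PPARGC1A (-1.18), the glucose transporter SLC2A3 (-0.56) and COX7A1 (-0.34) lowest. The fibro-adipogenic marker sum went from 90.9 in cluster 1 to 43.8 in cluster 3, with 5 of 5 markers detected in both. The smooth muscle and pericyte sum went from 0.678, with 5 of 5 detected, to 0.228, with 4 of 5 detected and RGS5 at 0. Within it MCAM went the other way, from 0.00207 to 0.00747. The mean of MYH11 was also higher in cluster 3, but its libraries overlapped. MYH11 had 0.0105 and 0.00542 in the libraries of cluster 1 and 0.0122 and 0.00791 in those of cluster 3. The part of these sums in the differences was not tested.

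The earlier step was examined by comparing cluster 1 with cluster 8. Of the 5 members tested, 3 were higher and 1 was lower in cluster 1, with 17.2% of the 11194 genes tested higher and 16.9% lower. PGAM2 was higher by a log2 value of 3.84 (SE 0.38, edgeR adjusted p = 0.000158), with 227 UMIs against 8. It passed the filter on low counts through cluster 1 alone and could not have been called lower there. ENO3 was higher by 1.77 (SE 0.070, edgeR adjusted p = 1.61e-06) and MB by 1.57 (SE 0.23, edgeR adjusted p = 0.00138). CKB was lower by -1.21 (SE 0.056, edgeR adjusted p = 2.80e-06). PFKM had -0.03 (SE 0.12, adjusted p = 0.869). CKM, with 12 against 6 UMIs, had overlapping libraries, at 0.00356 ± 0.000921 and 0.00354 ± 0.000200, and was not tested, and CKMT2 had 2 UMIs against 0. PYGM and AMPD1 were not tested in either of these earlier steps. From cluster 8 to cluster 1, in which the fibro-adipogenic marker sum went from 174 to 90.9 ± 0.0481, PFKL was lower (-0.25) and PFKP higher (0.24) among 9 partners, and 10 genes of the energy list were higher and 9 lower of 41. Positive values included COX8B (2.90), FABP3 (1.57) and GYS1 (1.00), while adenylate kinase AK1 (-1.07), lipoprotein lipase LPL (-0.85) and the creatine transporter SLC6A8 (-0.78) were lowest. COX8B passed the filter on low counts through cluster 1 alone and could not have been called lower there.

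**Figure D2:**
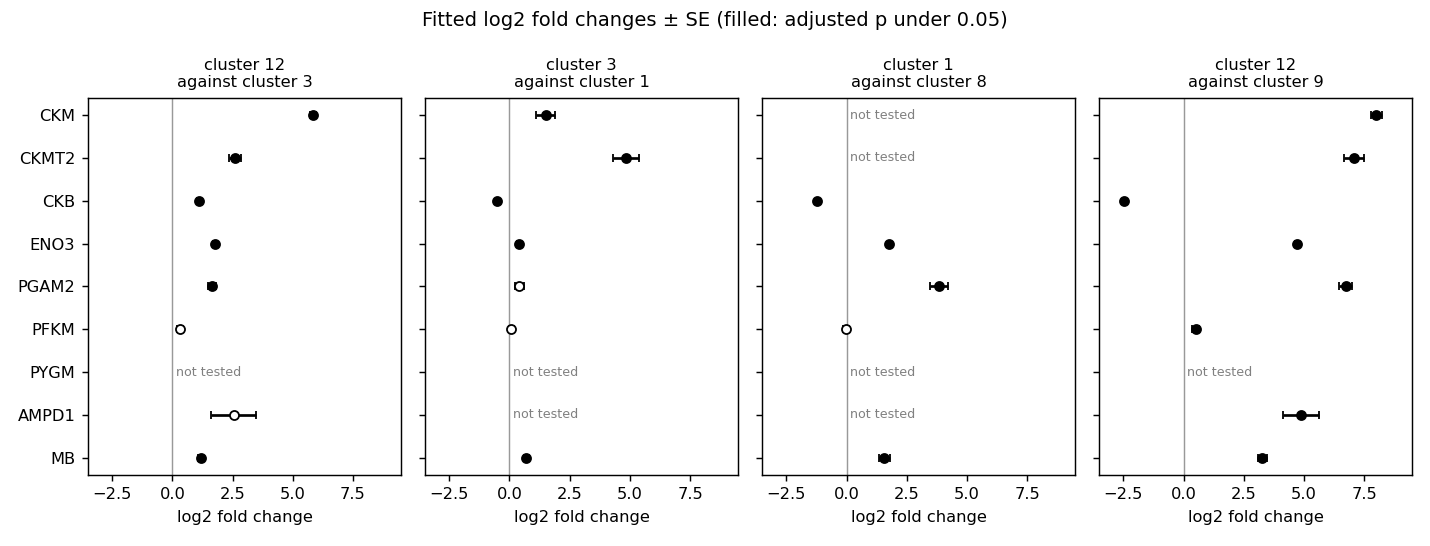
Fitted log2 fold changes (horizontal axis) of the 9 genes in the 4 comparisons, with bars of 1 SE, filled where the edgeR adjusted p was under 0.05 and open where it was not. CKB lay on the negative side in the comparisons of cluster 3 with 1, cluster 1 with 8 and cluster 12 with 9, at -0.50, -1.21 and -2.45, and on the positive side, at 1.12, in that of cluster 12 with 3.

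These 3 steps share sums with each other, and the values of each gene over them are therefore given side by side without a test. For CKB they were -1.21, -0.50 and 1.12 from cluster 8 to 1, 1 to 3 and 3 to 12. ENO3 had 1.77, 0.38 and 1.76, MB had 1.57, 0.70 and 1.18, and PGAM2 had 3.84, 0.41 and 1.66. PFKM had -0.03, 0.08 and 0.31. CKM, which was not tested between clusters 8 and 1, had 1.498 and 5.83 in the later steps.

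Against the non-muscle reference, cluster 12 differed from cluster 9 in each of the 8 members tested. Higher in cluster 12 were 7 members and lower was 1, where 32.6% of 10977 genes were higher and 35.6% were lower. CKM, CKMT2, PGAM2 and AMPD1 passed the filter on low counts through cluster 12 alone. These genes could therefore not have been called lower in it, and their calls add no evidence of a direction. The share of such genes among all tested was not counted. CKM had 662 against 6 UMIs and a log2 fold change of 7.999 (SE 0.23, edgeR adjusted p = 2.43e-08). CKMT2 had 130 against 2 UMIs, a ratio of levels of 138 with a counting interval of 37.5 to 1153, and AMPD1 had 16 against 1, a ratio of 34.0 with an interval of 5.28 to 1427. PGAM2 was higher by 6.73 (SE 0.27), ENO3 by 4.71 (SE 0.095) and MB by 3.27 (SE 0.18), with edgeR adjusted p-values of at most 8.62e-07. CKB was lower by -2.45 (SE 0.060, edgeR adjusted p = 1.16e-08). PFKM was higher by 0.50 (SE 0.15, edgeR adjusted p = 0.0169), with 0.143 and 0.129 in cluster 12 and 0.101 and 0.121 in cluster 9. This call was lost without TMM scaling (0.29, edgeR adjusted p = 0.118) and with DESeq2 (0.52, adjusted p = 0.139). PYGM, with 8 UMIs against 3, was not tested. Without TMM the median of all genes moved by -0.21, and the split of called genes went from 3581 higher and 3905 lower to 2851 and 4817, while in cluster 12 against 3 it went from 1963 and 1687 to 1552 and 2527.

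Among 9 partners tested between clusters 12 and 9, PYGL (0.70) and ENO1 (0.49) were higher in cluster 12, and CYGB (-2.68), PGAM1 (-0.98), AMPD2 (-0.76), PFKP (-0.72) and ENO2 (-0.63) were lower (edgeR). CYGB, a globin of fibroblast-like cells, had 175 UMIs in cluster 9 and 11 in cluster 12. It passed the filter on low counts through cluster 9 alone, so that its call adds no evidence of a direction. Of 41 genes of the energy list 24 were higher and 13 lower in cluster 12. Over all genes tested, 32.6% were higher and 35.6% were lower, and the 13 lower genes were not more than that share. COX8B (4.96), GATM of creatine synthesis (4.42) and GYS1 (3.24) were among the higher genes, and LPL (-2.43), SLC6A8 (-1.54) and SLC2A3 (-1.51) had the largest negative values. COX8B passed the filter on low counts only through cluster 12, and LPL and SLC2A3 only through cluster 9. The calls of these genes add no evidence of a direction.

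The muscle form made up a different share of each pair of enzymes with the same function. In cluster 12 CKM made up 40.4% and 39.95% of the CKM and CKB UMIs in the 2 libraries. The share was 2.48% ± 0.0109 for cluster 3, 0.624% ± 0.166 for cluster 1 and 0.0431% ± 0.0378 for cluster 9. ENO3 made up 13.86% and 13.05% of the ENO3 and ENO1 UMIs in cluster 12, 4.53% ± 0.149 in cluster 3 and 0.822% ± 0.115 in cluster 9. PGAM2 made up 3.52% and 3.28% of the PGAM2 and PGAM1 UMIs in cluster 12, 0.768% ± 0.199 in cluster 3 and 0.0156% ± 0.00775 in cluster 9. The partner gave more molecules than the muscle form in the sums of cluster 12 in each pair.

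**Figure D3:**
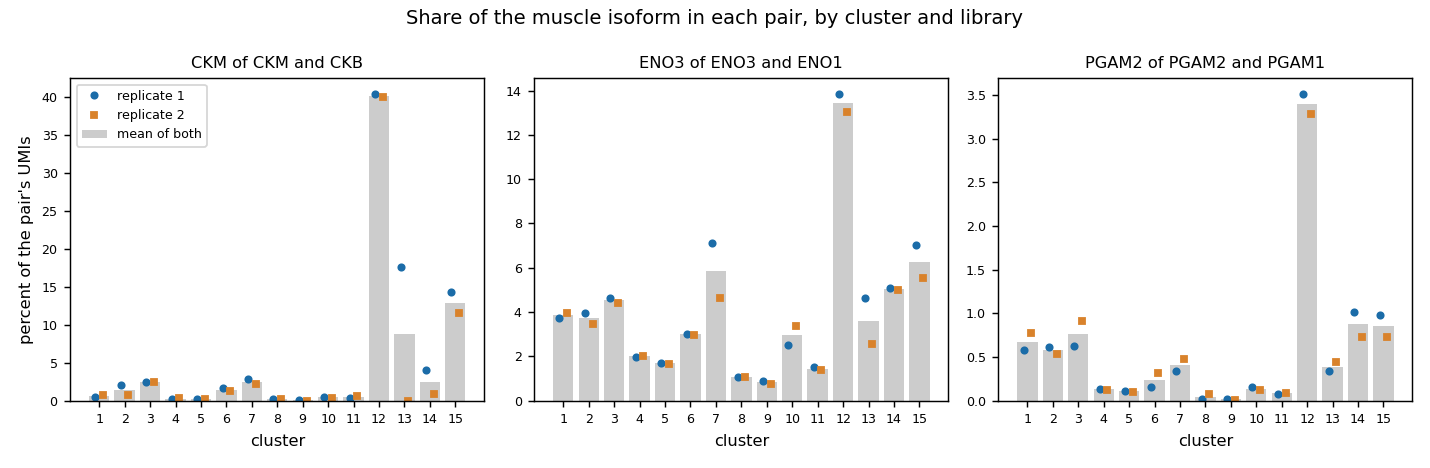
Share of the muscle isoform in the UMIs of each pair (vertical axis, percent, from 0) in the 15 clusters (horizontal axis), with bars at the mean of both libraries and a point for each. Cluster 12 had the highest share in each pair, at 40.2%, 13.5% and 3.40%, and the bars of clusters 13 and 15 in the pair of CKM and CKB rest on 3 and 4 CKM UMIs.

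Within cluster 12 the genes differed in how their UMIs were spread over the cells. CKM had a UMI in 148 of 627 cells (23.6%, 95% exact binomial interval 20.3% to 27.1%), 22 cells had 10 or more, and the 63 cells with the most CKM held 80.2% of its UMIs. ENO3 had a UMI in 571 cells (91.1%), and the 63 cells with the most ENO3 held 36.5%. For CKB, with 317 cells positive, the top 63 held 55.9%. MB was found in 231 cells, PGAM2 in 199, PFKM in 151, CKMT2 in 107, AMPD1 in 15 and PYGM in 5. With few molecules per cell, a zero does not show that a cell lacked the transcript. Droplets can also take up free RNA, and cluster 9 served as the reference for it, where CKM was found in 6 of 1080 cells (0.556%, median of 23011 UMIs per cell, against 19113 in cluster 12). Whether the muscle transcripts of cluster 9 were all free RNA was not tested. After thinning to 1000 UMIs, cluster 12 had a CKM share of 4.68% ± 0.377, cluster 3 one of 0.0895% ± 0.00516, cluster 1 one of 0.0332% ± 0.0103 and cluster 9 one of 0.0244% ± 0.0228. Cluster 1 overlapped cluster 9 in this share, and cluster 3 lay above it. MB in cluster 8 (0.264% ± 0.0811) likewise overlapped cluster 9 (0.292% ± 0.0656) after thinning, while ENO3 had 2.48% ± 0.0170 in cluster 8 and 1.28% ± 0.144 in cluster 9.

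**Figure D4:**
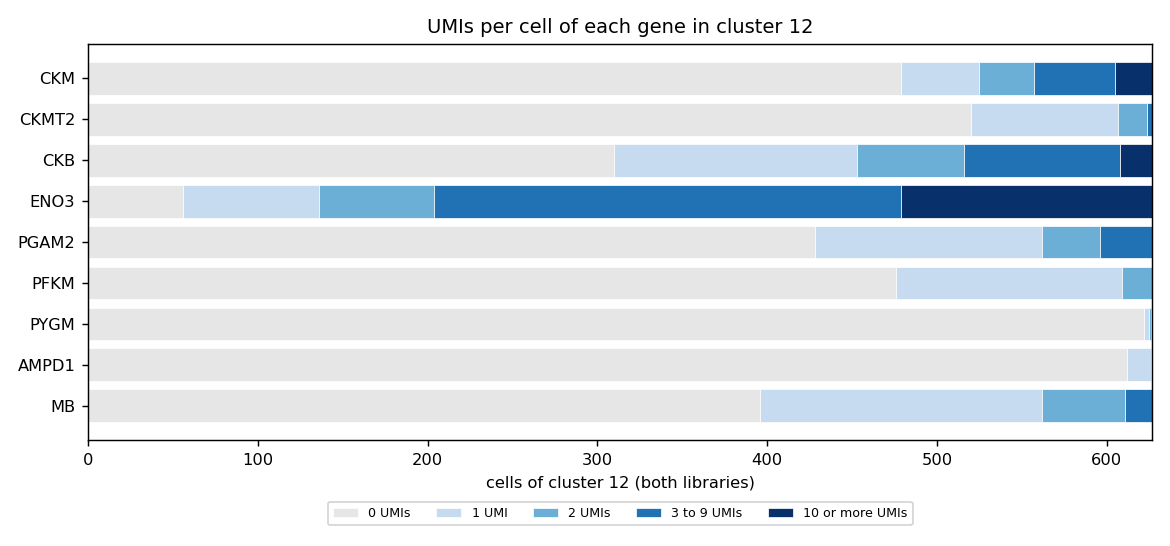
Number of cells of cluster 12 (horizontal axis, 627 cells of both libraries) with 0, 1, 2, 3 to 9 and 10 or more UMIs of each of the 9 genes. ENO3 had 10 or more UMIs in 148 cells, CKM in 22 and CKB in 19, while the other 6 genes never reached 10.

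Cells of cluster 12 were divided by their CKM UMIs to describe what accompanied them, without a test. The 479 cells without a CKM UMI were somewhat shallower than the 70 cells with 3 or more. Their medians were 18623 and 18898 UMIs in the 2 libraries, against 19980 and 21410. ENO3 was 2.94 and 2.81 in the cells without CKM and 5.76 and 6.27 in those with 3 or more. CKMT2 went from 0.0859 ± 0.00970 to 0.184 ± 0.0246, and the median contractile content, defined in the next paragraph, from 271 and 262 to 491 and 460. MYH3 went from 11.7 ± 1.93 to 30.6 ± 2.15 and MYMK, the fusion protein myomaker, from 2.68 ± 0.193 to 5.33 ± 0.0928. MB went from 0.227 ± 0.0468 to 0.336 ± 0.0945 and PGAM2 from 0.233 ± 0.00396 to 0.330 ± 0.122. PFKM had 0.137 and 0.128 in the cells without CKM and 0.174 and 0.166, from 26 UMIs, in those with 3 or more, so that its libraries were apart. Libraries overlapped for MYOG, with 18.5 ± 0.416 and 18.3 ± 3.54, CKB, with 0.809 ± 0.000909 and 0.817 ± 0.268, and ENO1, with 22.4 ± 0.208 and 21.2 ± 1.87. PGAM1 was 7.62 ± 0.339 in the cells without CKM and 5.96 ± 0.697 in those with 3 or more. In the 78 cells with 1 to 2 CKM UMIs the means of ENO3 (4.21), CKMT2 (0.136), PGAM2 (0.310) and MYH3 (22.5) lay between those of the outer classes. PFKM, with 0.149 and 0.101, and MB, with 0.354 ± 0.0326, had means there that did not.

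A finer order was obtained from the contractile content of each cell, the UMIs of 34 sarcomere genes per 10000 UMIs, none of them among the 9 genes. In clusters 1, 3 and 12, 5105 cells with at least 5000 UMIs were placed in 6 bins, of 1720, 929, 913, 895, 573 and 75 cells. The highest bin, at 500 or more, held cells of cluster 12 alone. Median depth rose over the bins from 12759 to 20921 UMIs per cell, and 50 cells lay within 10% of the upper edge.

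Along these bins CKM had mean levels of 0.00264, 0.00356, 0.00659, 0.0282, 0.275 and 2.10 ± 0.0897. The rise came late, and both libraries showed it, with 2.17 and 2.04 in the highest bin. CKMT2 had 0 UMIs in the lowest bin, which allows a level of up to 0.00132, and 0.00150, 0.00584, 0.0326, 0.0843 and 0.236 ± 0.0357 in the others. ENO3 rose through all bins, from 0.721 over 0.867, 1.04, 1.35 and 2.71 to 8.30 ± 0.841. MB went from 0.0685 to 0.458 ± 0.0715 and PGAM2 from 0.0506 to 0.452 ± 0.118, with means that increased from bin to bin. From the second to the third bin, however, MB was lower in replicate 2 (0.108 and 0.104) and PGAM2 was lower in replicate 1 (0.0672 and 0.0655). PFKM showed no such order, with 0.122 in the lowest bin and 0.131 ± 0.0548 in the highest.

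CKB behaved otherwise, with 0.4998, 0.486, 0.446 and 0.480 in the lower 4 bins and 0.753 ± 0.0509 in the fifth. In the highest bin the libraries parted, with 1.27 from 97 UMIs and 0.592 from 45, so that CKB there could not be placed above or below its neighbour. CKM, with 321 UMIs against 142 of CKB, gave more molecules than CKB in both libraries of this bin. PGAM1 went from 10.95 ± 0.412 to 4.001 ± 0.505 and PFKP from 0.916 ± 0.0392 to 0.308 ± 0.0296. ENO1 kept between 21.7 and 22.6 throughout. PYGM and AMPD1 each had 7 UMIs in the highest bin, 1 in replicate 1 and 6 in replicate 2. MYOG went from 15.9 to 17.6 in replicate 1 and from 18.0 to 19.8 in replicate 2 between the fifth bin and the highest, while the mean of CKM went from 0.275 to 2.10.

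**Figure D5:**
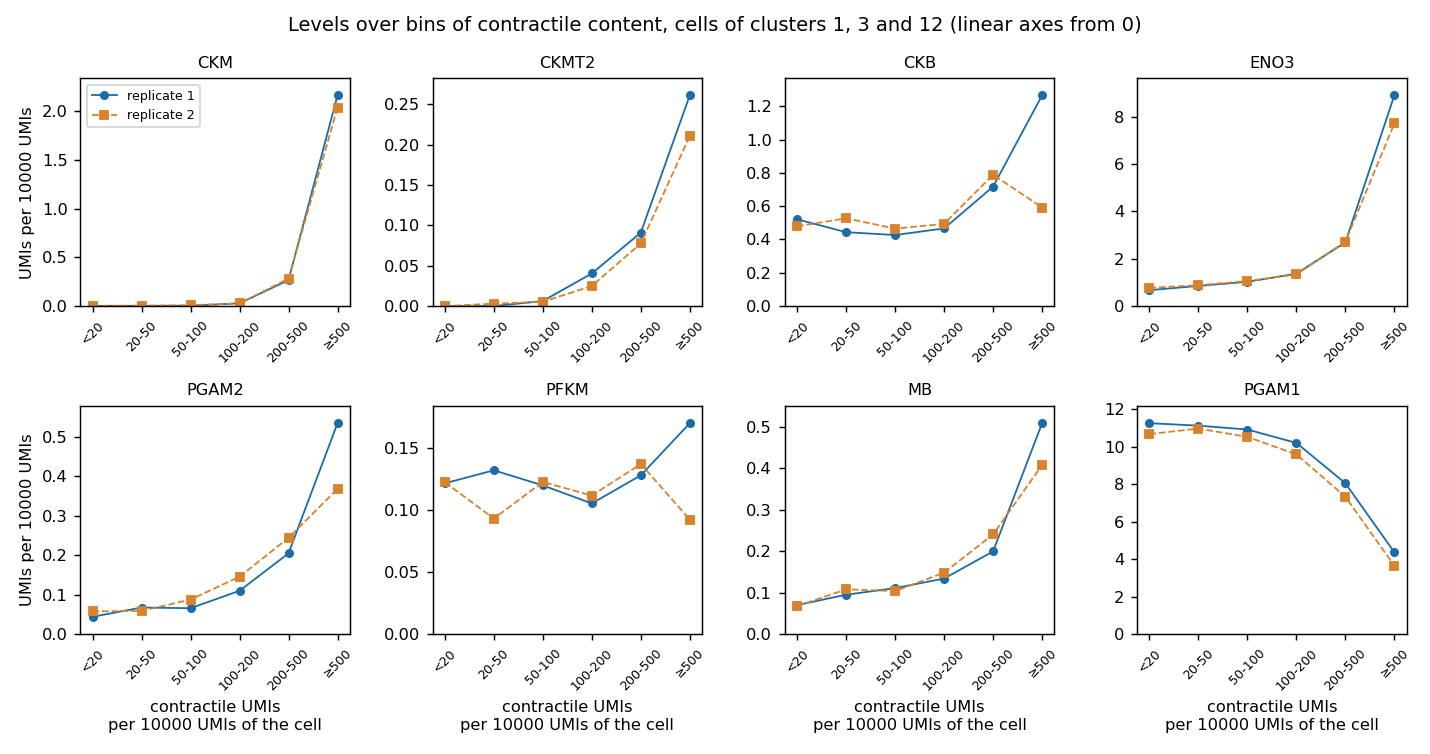
Levels (vertical axis, UMIs per 10000 UMIs, linear from 0) of 7 of the genes and of the partner PGAM1 over 6 bins of contractile content (horizontal axis, contractile UMIs per 10000 UMIs of the cell), with a line for each library. CKM reached 2.10 in the highest bin from 0.275 in the bin before, PGAM1 went from 10.95 to 4.001, and the libraries parted for CKB in the highest bin, at 1.27 and 0.592.

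Genes with the most similar pattern were sought among 9616 genes with at least 500 UMIs, by Pearson's r of log2 levels over the 15 clusters, with a pseudocount of 0.1. The points share libraries and differ in depth, and the values are descriptive. Nearest to CKM were the thin-filament protein LMOD3 (r = 0.987), the slow myosin light chain MYL2 (0.985) and the slow troponin TNNT1 (0.965). Nearest to ENO3 were the fast troponin C gene TNNC2 (0.944), the slow form TNNC1 (0.929) and ANKRD2 (0.909), and nearest to PGAM2 were TNNC1 (0.940), S100A1 (0.933) and AKR1B1 (0.929). MB was closest to CHMP4C (0.939), UROS (0.935), an enzyme of heme synthesis, and BFSP1 (0.930). CKB was closest to BHLHE41 (0.907), the smooth muscle actin ACTG2 (0.903) and the cytokine IL6 (0.890), and PFKM to RGN (0.864), JARID2 (0.857) and PHYKPL (0.852). The means of PFKM spanned a narrow range, from 0.0967 to 0.184 in the shallow cluster 7. Among the members, ENO3 and PGAM2 were the most alike pair (r = 0.914), followed by CKM and PGAM2 (0.826), and CKB had r values from -0.479 with MB to 0.353 with PFKM.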

How the data were processed

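Reads were processed by the authors with Cell Ranger 3.0.2 on the assembly ARS-UCD1.2, from alignment to the merging of both libraries at equal read depth. The deposited counts are whole UMIs per gene and cell after reads were thinned to equal depth between the libraries, with no further scaling. Doublets were kept. The deposited average of each gene and cluster, a score scaled to a common total, gives whole UMI sums, from which the cluster of all 19096 cells was deduced in 32 rounds with 0 of 252240 sums differing. The authors' fold change and p-value columns against all other cells were not used. The number at the end of each barcode gives its library.

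UMI sums per cluster and library were compared with edgeR 4.0.16 (TMM, filterByExpr, quasi-likelihood test) in R 4.3.3. The procedure was also run on simulated counts. These were drawn without a shared effect of the library and so cannot show how the pairing below bears on the test. Both sums of a library come from the same sample, so the library pairs them, and log2 ratios between the libraries correlated from 0.345 to 0.512 over genes between the compared clusters. The main fit held no term for the library and leaves this pairing out. With the library as a block, 2561 genes were higher and 2411 lower in cluster 12 against 3, where the main fit had 1963 and 1687. The calls of partner and energy genes given above are those of the main fit. Alternatives were DESeq2 1.42.0, no TMM, no filter, the library as a block, a fit over all 15 clusters, cells under 2000 UMIs or the top 5% left out, cells assigned by profile without these genes and single libraries. Leaving out shared barcodes was added after seeing the data. Python 3.11.15 computed levels and shares.

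Named were all 9 genes, all isoform partners, 6 markers, up to 4 genes with the largest positive and up to 3 with the largest negative fold change of the energy list (called, at least 100 UMIs, both libraries on the same side), and the 3 most similar genes per member with at least 500 UMIs. 1 gene that this rule names is not reported here. The members and lists were chosen with earlier results of these data known.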

Additional observations from a re-analysis of the deposited data

How the results depend on the processing

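Of 247 alternative values for 28 tested fold changes of the 9 genes, 240 kept their direction and their side of the threshold and 0 reversed. Leaving out cells under 2000 UMIs removed no cell of clusters 1, 3, 8, 9 and 12. The values of that setting therefore repeat the main result and could not differ from it. Calls were lost for CKM in cluster 3 against 1 and PFKM in cluster 12 against 9, with the values given above. AMPD1 in cluster 12 against 3 passed with no filter on low counts (2.51, edgeR adjusted p = 0.0426), with the library as a replicate block (2.51, edgeR adjusted p = 0.000158) and without the 5% of cells with the most UMIs (2.78, edgeR adjusted p = 0.0395), and PGAM2 in cluster 3 against 1 passed with the block. The block changed no other call of these genes. DESeq2 called fewer genes, with 837 lower in cluster 12 against 3, 1595 higher and 1175 lower in cluster 3 against 1, and 1205 higher and 1061 lower in cluster 1 against 8, and the cause was not tested. With cells assigned by profile, cluster 12 in place of 13 had the highest PYGM level and cluster 7 in place of 12 the highest AMPD1 level, each from a few UMIs. With 1 library there is no test, and the fold change moved by more than the spread between libraries in 4 of 56 values, the most for AMPD1 in cluster 12 against 3, at 5.64 in replicate 1 and 1.64 in replicate 2. Depth limits PYGM and AMPD1 in all clusters, and CKM and CKMT2 in clusters 7, 13, 14 and 15.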
